A study of Rattus norvegicus with 20 samples.

Results

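The cells described here were thymic and bladder epithelial cells of rats that had been cultured, transplanted into newborn mouse skin, recovered from the transplants and cultured again. Members were chosen by their labels, as the samples of recovered thymus (n = 2) and of recovered bladder (n = 2), which made 4 of the 20 RNA-seq samples. The other samples were trachea, vagina and whisker follicle cells in both rounds, and thymus and bladder cells before transplantation. The last of these, also 2 samples for each tissue, served as the reference for how far the recovered cells differed.

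All donors were Sprague-Dawley rats that constitutively express EGFP from the act-EGFP transgene, so that donor cells could be told from the mouse host and from the mouse feeder cells they grew on. Cells of every group were sorted on EGFP before RNA was extracted. The bladder cells came from the dome of a rat of age PN201 (postnatal days) and were labelled bulk cultures in both rounds. For thymus, cells stored frozen from a rat of age PN137 were used. Before transplantation their labels read both bulk and clone 9, and the recovered thymic cells were the bulk culture 907. The whisker cells set beside them below came from a rat of age PN57. They were labelled clones, 7 before transplantation and 14 in recovered cells, so they match neither tissue in age or culture. Trachea and vagina cells were bulk cultures from donors of age PN200. Tissue, donor age and culture history therefore cannot be told apart in any difference given below. The labels do not say that the 2 samples of a group came from separate animals or transplants. The p values therefore measure only the spread within groups, pooled over all 10 groups, which may be technical.

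The thymic epithelium derives from pharyngeal endoderm, and its founding cells rely on homeobox transcription factors such as those of the Hox and Pax families. The bladder dome is lined by urothelium, a transitional epithelium of endodermal origin that expresses simple keratins, uroplakins and forkhead factors and that forms a tight barrier against urine. Both tissues lack hair follicles. In skin the same basal program, under the transcription factor Tp63, leads to keratins of the spinous layer and to proteins that are cross-linked into the cornified envelope.

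Recovered thymus samples had 22851699 and 29344701 counts on genes and recovered bladder samples 22556514 and 24974751. Levels are given in CPM, counts scaled to a common library size by TMM, and 3 counts, taken as the floor of detection, corresponded to means of 0.113 CPM in recovered thymus and 0.136 CPM in recovered bladder. Intervals and floors given here cover counting error only. Duplicates differed beyond counting noise throughout (mean chi-square per gene of 2.48 in recovered thymus, 4.49 in recovered bladder, 42.9 in thymus before and 34.5 in bladder before), and none was a repeat of another. The root mean square difference of log2 CPM between the 2 samples was 0.26 in recovered thymus and 0.30 in recovered bladder, and 0.44 and 0.45 in thymus and bladder before transplantation, so the recovered pairs were the tighter ones. Standard errors and p values rest on a spread pooled over all groups, which can understate that of the looser pairs before transplantation.

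The first question was how far apart the 2 tissues stood in each round. Over 13300 genes, the root mean square difference of log2 CPM between thymus and bladder samples was 1.51 ± 0.03 (SD over 4 sample pairs) before transplantation and 1.04 ± 0.004 in recovered cells, a change of -31.0%. All 4 pairs of recovered samples lay between 1.03 and 1.04, and all 4 pairs before transplantation between 1.48 and 1.54. Among the 10 pairs of tissues the thymus and bladder pair ranked 8 from the nearest before transplantation and 3 in recovered cells. Bladder and trachea, the nearest pair before transplantation at 1.05, stood at 1.15 in recovered cells, and the other changes ranged down to -28.4% for vagina and whisker. These are descriptions, since 2 samples a group allow no two-sided exact permutation p below 0.33 and the cultures were picked as a pair with this approach already known.

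**Figure D1:**
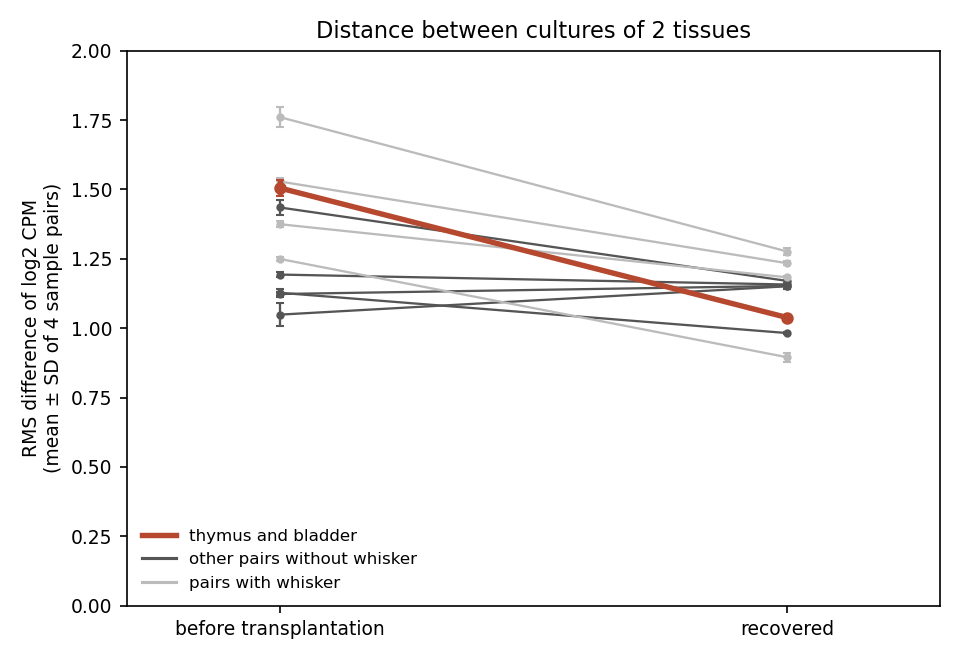
Distance between the cultures of 2 tissues as the root mean square difference of log2 CPM (vertical axis), before transplantation and in recovered cells (horizontal axis), as mean ± SD of 4 sample pairs. The thymus and bladder line falls from 1.51 to 1.04 and ends as the third lowest, after vagina and whisker at 0.90 and trachea and vagina at 0.98.

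Between recovered thymus and recovered bladder cells 2186 of 13300 genes tested were called (16.4%), with an adjusted p value from limma below 0.05 and at least a 2-fold difference. Of these 904 (6.8%) were higher in thymus and 1282 (9.64%) higher in bladder. Before transplantation 3620 genes were called (27.2%), 1600 of them higher in thymus (12%) and 2020 higher in bladder (15.2%). The median log2 fold change over all genes was close to 0 in both comparisons (-0.0043 recovered, 0.018 before), so gene values below can be read against 0. RNA of bulk samples cannot tell fewer cells of a type from less RNA per cell.

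The 2 comparisons share no sample. In the same direction, 1118 genes were called in both, which is 30.9% of the genes called before transplantation and 51.1% of those called in recovered cells. A further 248 genes were called in both comparisons in opposite directions, 820 only in recovered cells and 2254 only before. Failing the test in one round does not show a change, so the change of the difference was tested itself as an interaction. It was called for 3096 genes (23.3%), 1574 toward thymus (11.8%) and 1522 toward bladder (11.4%), among them 1486 of the 2254 called only before, 466 of the 820 called only in recovered cells, 393 of the 1118 called alike and all 248 that turned. For the 248 this outcome was nearly set in advance, since opposite calls at the fold threshold already make the change large. Of the 3096 genes 2280 (73.6%) had the smaller absolute difference in recovered cells. The cultures were picked with their approach already known, so neither this share nor the lower count of called genes is separate evidence of it. Within bladder 21.1% of all genes were called between rounds (10.1% up, 11% down) and within thymus 15.4% (8.5% up, 6.89% down). Among the 1486, the change after transplantation was called in bladder alone for 717, in thymus alone for 311 and in both for 239.

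**Figure D2:**
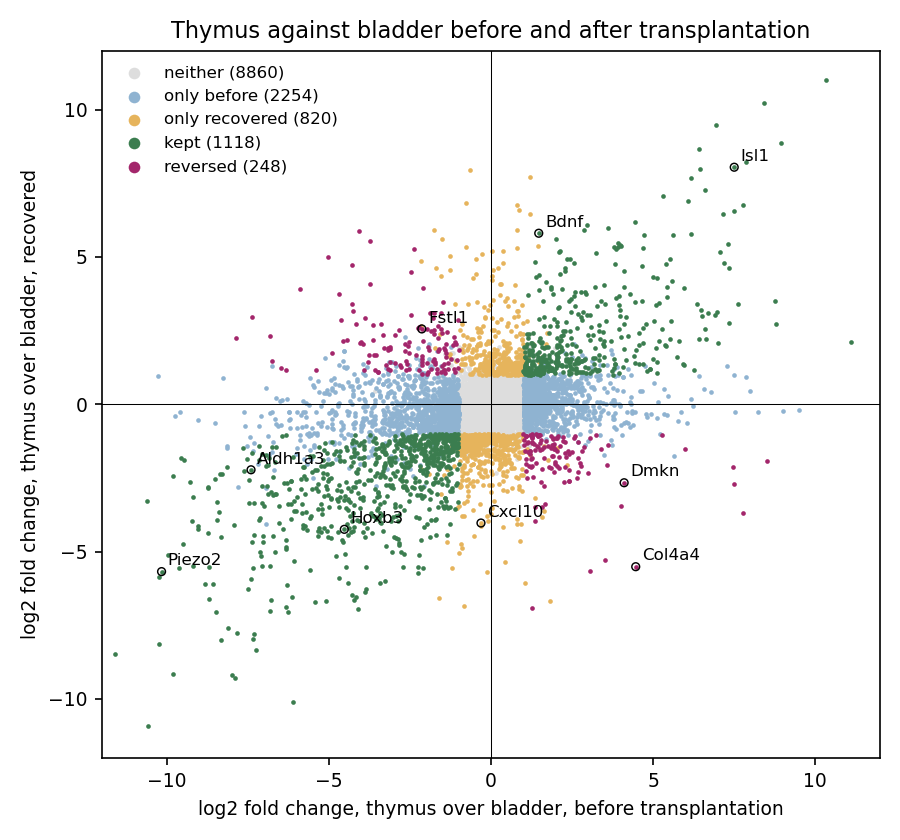
Each point is 1 of 13300 genes, with the log2 fold change of thymus over bladder before transplantation on the horizontal axis and in recovered cells on the vertical axis, coloured by the comparison in which it was called. Green genes kept their direction (1118), blue were called only before (2254), yellow only in recovered cells (820), and the 248 purple genes such as Col4a4 and Fstl1 turned.

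Gene symbols could be paired with 1911 of the genes tested. Most symbols named below begin with the letters A to F, so the lists and rankings cover only part of their genes. The tables that give these names list genes that differ from whisker cells in these samples, and 32.9% of the named genes were called between recovered thymus and bladder, 12.9% higher in thymus and 20% higher in bladder. Counts within the gene groups below are read against these shares, and against 52.7% before transplantation (20.7% and 32%). The interaction was called for 45.6% of named genes (25.1% toward thymus, 20.5% toward bladder). Values are given with the standard error of the fit, and a positive log2 fold change means higher in thymus.

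Among transcription factors that mark position along the body, most differences called in recovered cells had been present before. Of 30 members tested, homeobox, T-box, forkhead and related genes, 11 were higher in recovered thymus, 6 were higher in recovered bladder and 13 were not called, with a median log2 fold change of 0.70. Before transplantation the counts were 16 and 10, and 10 of the members called then were not called in recovered cells. Of the 17 called in recovered cells 15 had been called in the same direction before, 1 in the opposite direction and 1 not at all. Isl1, a LIM homeobox factor of pharyngeal endoderm, stood at 18.8 and 17.2 CPM in the 2 recovered thymus samples and at 0.0476 and 0.0431 CPM, 1 count each, in recovered bladder. On counts that is a ratio of 396 with a 95% interval of 109 to 3271 for counting error, beside a ratio of 237 (80.8 to 1152) before transplantation. Recovered whisker cells were also near 0, at 0.046 and 0 CPM.

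Hoxa3, which the third pharyngeal pouch needs to form a thymus, was at 10.4 and 10.3 CPM against 1.14 and 1.08 CPM (3.20 ± 0.20, adjusted p = 2.27e-09). Before transplantation thymus had held it at 9.29 and 9.32 CPM and bladder at 0.485 and 0.69. Dmrt2, a DM domain factor, stood at 18.9 and 17.8 CPM in recovered thymus and 22.1 and 17.4 before. In bladder it was at 2.05 and 2.2 CPM in recovered cells and 0.299 and 0.0862 before, a rise of 3.51 ± 0.51 (adjusted p = 2.05e-05), so the gap narrowed from the bladder side while remaining called (3.09 ± 0.22, adjusted p = 1.20e-08).

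On the bladder side, Hoxb3 was at 11.3 and 11.8 CPM against 0.552 and 0.627 CPM (-4.24 ± 0.26, adjusted p = 2.27e-09), and at 10.9 and 11.4 against 0.397 and 0.538 before. Hoxa3 and Hoxb3, members of the same paralogous group of the Hox clusters, were thus higher in opposite tissues in both rounds, with no overlap between the samples of the 2 tissues.

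Tbx3, a T-box factor, came closer from the thymic side. It lay at 45.4 and 40.6 CPM in recovered bladder and 33.5 and 44 before, and in thymus at 11.6 and 12.2 CPM in recovered cells and 0.119 and 0.29 before. The log2 fold change moved from -7.53 ± 0.51 to -1.85 ± 0.13 (interaction adjusted p = 2.57e-07). Recovered whisker cells had 17.6 and 17.5 CPM, between the 2. Foxa1, a forkhead pioneer factor of urothelium, was at 51 and 52.5 CPM in recovered bladder against 5.35 and 4.13 in recovered thymus. The difference of -3.48 ± 0.27 (adjusted p = 3.31e-08) was smaller than the -5.01 ± 0.33 before (interaction 1.53 ± 0.43, adjusted p = 0.00735), and recovered whisker cells held 0.0921 and 0.246 CPM.

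The naming rule took the 6 called members of each list with the highest CPM, and the next genes were added after their values were seen. Wt1, a zinc finger factor of mesoderm and kidney, was the one member called only in recovered cells. It stood at 5.61 and 6.24 CPM in recovered thymus against 0.0476 and 0.0431 in recovered bladder and 0.119 and 0.207 in thymus before, and recovered whisker cells had 3.13 and 2.95 CPM. Dlx5, a homeobox factor of the branchial arches, was kept in thymus at 4.37 and 4.19 CPM against 0.286 and 0.215 in bladder, with 3.99 after and 4.10 before. Dlx1, Dlx2 and Dlx6 were called toward thymus in both rounds. Dlx3 and Dlx4 were called toward thymus only before, at 3.31 and 2.47, and stood at 0.98 and -0.32 in recovered cells. Hoxb4, next to Hoxb3 in its cluster, was at 6.24 and 4.87 CPM in recovered bladder and 0.212 and 0.231 in recovered thymus. Cdx2, a caudal homeobox factor of hindgut, was called before at -3.16 and stood at 36.9 and 33.3 CPM in recovered thymus and 27.1 and 26.1 in recovered bladder, with 42.9 and 45 in recovered whisker (0.39 ± 0.11, not called).

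**Figure D3:**
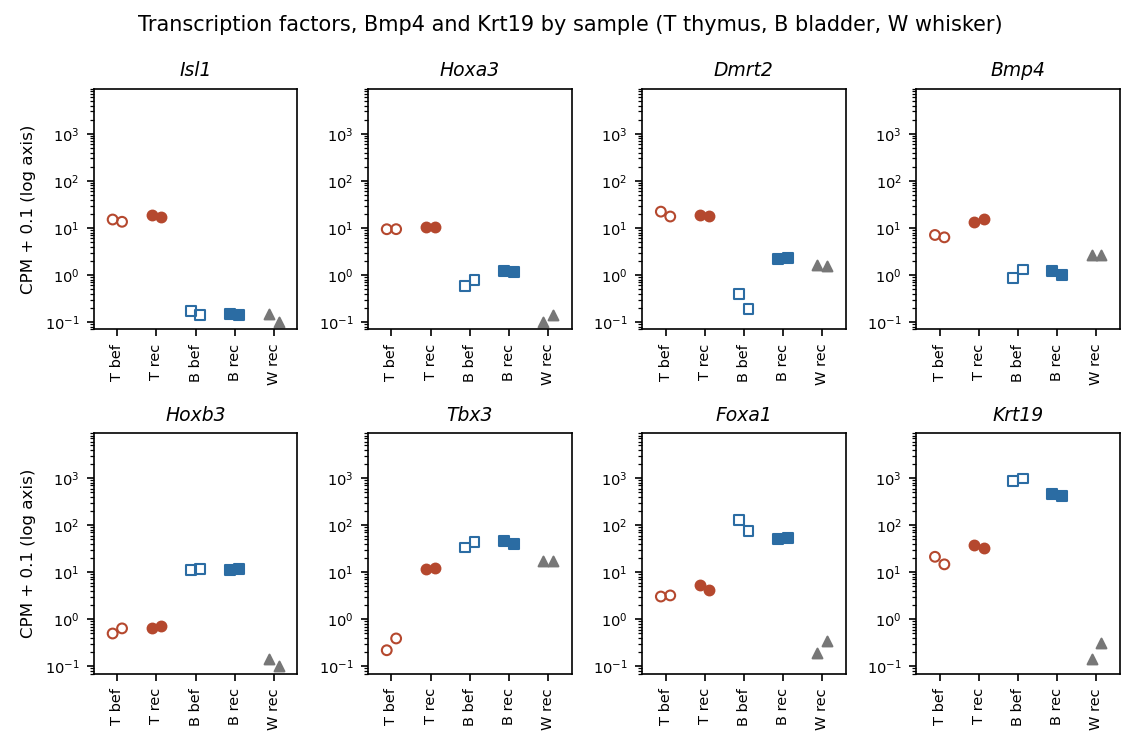
CPM + 0.1 on a log axis for 8 genes, with 1 point per sample: thymus (red circles) and bladder (blue squares) before transplantation (open) and recovered (filled), and recovered whisker (grey triangles). Isl1 and Hoxa3 stay high in thymus and Hoxb3 and Foxa1 in bladder, while the recovered thymus points of Tbx3 rise toward bladder.

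Among urothelial genes more were higher in bladder than in thymus. Of 25 members fixed, 13 had a name in the files, and 7 of these were higher in recovered bladder, 1 was higher in recovered thymus and 5 were not called (median log2 fold change -1.55). Before transplantation 9 had been higher in bladder and none in thymus (median -1.80), and 6 were called toward bladder in both rounds. The defining uroplakin markers Upk1a, Upk2 and Upk3a and the keratins Krt7 and Krt20 are not analysed here because no name was paired with them, so the label could be checked only on the genes that follow. Krt19, a simple epithelial keratin, was at 469 and 413 CPM in recovered bladder and 37 and 33.2 in recovered thymus (-3.66 ± 0.14, adjusted p = 5.77e-12). Before transplantation bladder had 857 and 987 CPM and thymus 21.2 and 14.6, so both tissues had moved toward each other (bladder -1.06, thymus 0.99).

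Krt8 and Krt18 pair with each other in simple epithelia, and they changed differently. Krt8 was at 276 and 281 CPM in recovered bladder and 59.6 and 59.9 in recovered thymus. Before transplantation it had been at 1656 and 1699.9 CPM in bladder and 411 and 331 in thymus. Krt8 thus fell by similar steps in both tissues (bladder -2.59, thymus -2.63), and the tissue difference stood at -2.22 ± 0.12 after and -2.18 ± 0.12 before (interaction adjusted p = 0.878). Krt18 was at 24.1 and 22.3 CPM against 6.07 and 7.07 CPM in recovered cells, after 379 and 289.9 against 2.78 and 2.94. Its difference shrank from -6.85 ± 0.24 to -1.81 ± 0.18 (interaction adjusted p = 1.64e-09), with bladder falling by 3.83 on the log2 scale and thymus rising by 1.20. Both keratins were at or under 0.33 CPM in recovered whisker cells.

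Prom1, a pentaspan membrane protein of apical protrusions, was at 767 and 774 CPM in recovered bladder and 193 and 188 in recovered thymus (-2.02 ± 0.10, adjusted p = 1.77e-10). Cldn4, a claudin of tight junctions, was the one member of the list called only in recovered cells, at 1974 and 1946 CPM against 676 and 663 (-1.55 ± 0.11, adjusted p = 6.66e-09), with 1322 and 1104 against 1165 and 891 before. Fabp4, a fatty acid binding protein, was at 25.5 and 21.8 CPM in bladder and 0.467 and 0.528 in thymus. Upk3bl, a uroplakin-like gene, was the exception. It stood at 61.5 and 58.2 CPM in recovered thymus and 12.2 and 12.4 in recovered bladder (2.28 ± 0.18, adjusted p = 3.32e-08), whereas before transplantation bladder had been higher, at 16.7 and 28.1 against 10.7 and 8.86 CPM. The defining markers Upk1b and Psca were not called. Upk1b, a uroplakin, was at 141 and 134 CPM in recovered bladder and 75.2 and 72.6 in recovered thymus (-0.90 ± 0.11, under the fold threshold), and Psca at 26 and 22.3 against 20.1 and 19.2 (-0.30 ± 0.27, adjusted p = 0.385).

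Genes of the thymic epithelium list went both ways, beside 12.9% of all named genes higher in recovered thymus and 20% in recovered bladder. Of 30 members fixed 14 had a name, and 4 were higher in recovered thymus, 4 were higher in recovered bladder and 6 were not called (median -0.64), with 6 and 6 called before. Those higher in thymus included Isl1 and Hoxa3, given above, and Bmp4, a ligand of the bone morphogenetic protein family, which was at 13.5 and 15.2 CPM against 1.14 and 0.904 (3.80 ± 0.28, adjusted p = 1.83e-08). The 4 higher in bladder are known from antigen presentation and immune tolerance. Cd80, a costimulatory ligand for T cells, was at 52.9 and 48.7 CPM in recovered bladder and 15.8 and 17.2 in recovered thymus (-1.61 ± 0.26, adjusted p = 8.74e-05). Cd74, the invariant chain of class II molecules, was at 9.9 and 9.26 CPM against 2.97 and 2.91 (-1.70 ± 0.41, adjusted p = 0.00262). The other 2, named after their values were seen, were Cd83 and Aire. Cd83, a marker of activated antigen presenting cells, was at 1.48 and 1.38 CPM in recovered bladder and at 1 count in all in recovered thymus, a ratio of 76.7 with a 95% interval of 13.3 to 3076. Aire, the regulator of tissue antigens in medullary thymic cells, was at 0.952 and 0.387 CPM in recovered bladder and 0.17 and 0.165 in recovered thymus, and had been higher in thymus before, at 0.278 and 0.373 against 0.112 and 0.0431 CPM, with every value under 1 CPM.

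Eya1, a transcriptional coactivator and phosphatase, was a defining marker that was no longer called. Its level fell in thymus from 34.7 and 46.4 CPM to 7.43 and 6.93 CPM, beside 3.95 and 4.65 in recovered bladder (0.73 ± 0.23 after, 2.76 ± 0.17 before, interaction adjusted p = 2.09e-05). Tbx1, a T-box factor of the pharyngeal arches, was at 7.81 and 5.51 CPM in recovered thymus and 9.1 and 9.47 in recovered bladder and was not called in either round. Foxn1, Pax1, Pax9 and Psmb11 are not analysed here.

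Keratins, desmosomal genes and genes of the cornified envelope moved toward bladder between rounds. Of 33 members tested, 16 were higher in recovered bladder, 3 were higher in recovered thymus and 14 were not called, with a median log2 fold change of -1.08. Before transplantation 8 had been higher in bladder and 12 in thymus, with a median of 0.83. The interaction was called for 24 members, 18 of them toward bladder. Between rounds, 25 of the 33 rose and 4 fell in bladder, and 18 rose and 1 fell in thymus, at the same thresholds. Of all named genes 21.6% rose and 22.8% fell in bladder, and 19% rose and 14% fell in thymus.

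Krt10, a keratin of the spinous layer of skin, was at 235 and 223 CPM in recovered bladder and 14.4 and 12 CPM in recovered thymus, where both tissues had been at 2 CPM or less before (1.57 and 1.64 in bladder, 1.79 and 0.911 in thymus). It rose by 7.14 ± 0.30 in bladder and 3.32 ± 0.34 in thymus, and the recovered cells differed by -4.13 ± 0.14 (adjusted p = 2.39e-12). Recovered whisker cells were above both, at 821 and 917 CPM. Dmkn, which encodes the secreted epidermal protein dermokine, was at 91.3 and 83.2 CPM in recovered bladder, next to recovered whisker cells at 91.2 and 89.3 CPM. Recovered thymus was at 13.6 and 13.8 CPM (-2.66 ± 0.14, adjusted p = 2.49e-10). Before transplantation the order had been the opposite, 5.6 and 3.27 CPM in thymus against 0.299 and 0.172 in bladder (4.11 ± 0.57, adjusted p = 9.76e-06). Sbsn, another secreted epidermal protein, named after its values were seen, moved likewise, at 104 and 87.2 against 16.7 and 14.8 CPM after and 0.859 and 1.64 against 9.05 and 4.31 before.

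Ecm1, an extracellular matrix protein of suprabasal epidermis, was at 755 and 766 CPM in recovered bladder and 313 and 312 in recovered thymus (-1.28 ± 0.086, adjusted p = 4.70e-09). Before transplantation it had been at 299 and 310.3 CPM in bladder and 357 and 291 in thymus. Cst6, a cysteine protease inhibitor of the cornified layer, was at 343 and 324 against 135 and 126 CPM (-1.35 ± 0.16, adjusted p = 2.98e-06). A rise between rounds was called for both genes in bladder (1.32 for Ecm1, 1.97 for Cst6) and for neither in thymus (-0.046 and 0.16), and the interaction was called for both (adjusted p = 1.57e-07 and 7.05e-06). Padi1, an enzyme that converts arginine to citrulline in keratinising cells, ran the other way in bladder. It fell there from 476 and 427 to 112 and 100.1 CPM and rose in thymus from 4.29 and 4.47 to 78.3 and 72.6 CPM, and the difference of -6.68 ± 0.14 before was -0.49 ± 0.079 in recovered cells, under the fold threshold.

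Krt4, a keratin of mucosal stratified epithelia, was higher in recovered thymus. Thymus had 968 and 910.5 CPM and recovered bladder 302 and 272 (1.71 ± 0.34, adjusted p = 5.22e-04), and recovered whisker cells had 0.737 and 0.368. Before transplantation thymus had 53.2 and 33.6 CPM, and the bladder samples, at 16.2 and 69.6 CPM, lay on both sides of that range. The gene thus rose in both tissues, by 4.47 ± 0.36 in thymus and 3.13 ± 0.37 in bladder. Calml3, a calmodulin-like protein of stratified epithelia, and Crnn were the other 2 members higher in recovered thymus. The first, named after its values were seen, was at 183 and 167 CPM in thymus and 21.2 and 18.1 in bladder.

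**Figure D4:**
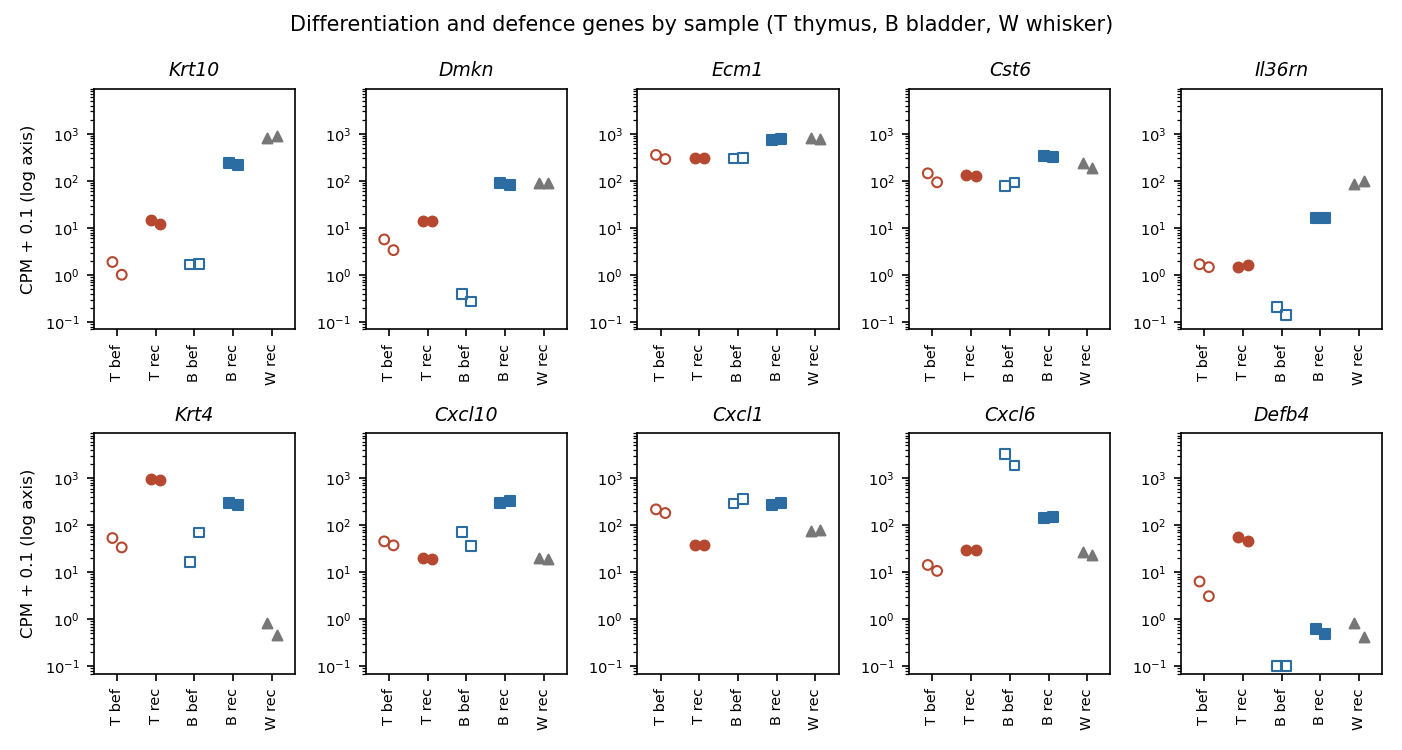
CPM + 0.1 on a log axis for 10 genes of differentiation and defence, with 1 point per sample: thymus (red circles) and bladder (blue squares) before transplantation (open) and recovered (filled), and recovered whisker (grey triangles). Krt10, Dmkn and Il36rn rise in recovered bladder toward recovered whisker, Krt4 and Defb4 are highest in recovered thymus, and Cxcl10 and Cxcl1 are higher in recovered bladder.

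Of 15 claudin and tight junction members 4 were higher in recovered bladder and 1 in recovered thymus, with 10 not called (median -0.59). This is near the share of called genes among all named genes (32.9%). The count toward bladder was 2 when only the samples compared were fitted, where Esam and Cldn6 did not pass the filter of 1 CPM. Clmp, a junctional membrane protein, was at 33.2 and 34.2 CPM in recovered bladder and 4.88 and 5.88 in recovered thymus (-2.63 ± 0.13, adjusted p = 1.17e-10). Cgnl1, a junctional plaque protein related to cingulin, was the 1 higher in thymus, at 361 and 346 against 134 and 122 CPM (1.47 ± 0.087), after 164 and 176 against 175 and 188 before. The other called members were Cldn4 above, and Esam and Cldn6, both below 1 CPM in all 4 samples. Esam, an adhesion protein of endothelium, stood at 0.905 and 0.689 CPM in bladder against 2 counts in all in thymus, a ratio of 21.3 with a 95% interval of 5.47 to 183. Cldn6 stood at 0.524 and 0.56 CPM in bladder against 0.297 and 0.0991 in thymus and lost its call under 4 of the alternatives at the same fold threshold. Of 11 basal epithelial and basement membrane members 2 were higher in thymus, Col4a1 and Col4a2, and 1 in bladder (2 without thymus replicate 1). This was Cdh1, E-cadherin, at 1772 and 1709 CPM against 806 and 821 (-1.10 ± 0.074, and -1.15 ± 0.074 before).

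Among chemokines and cytokines more were higher in bladder than in thymus, as among all named genes (20% and 12.9%), and most were not called. Of 27 members 10 were higher in recovered bladder, 2 in recovered thymus and 15 were not called (median -0.87), after 15 and 6 before (median -1.53). The count toward thymus was 1 without bladder replicate 2. Cxcl10, an interferon-induced attractant of T cells, was at 299 and 330.4 CPM in recovered bladder and 20.1 and 18.5 in recovered thymus (-4.03 ± 0.23, adjusted p = 9.50e-10). Before transplantation the 2 tissues had overlapped, at 70.8 and 35.9 CPM in bladder and 45.1 and 37.1 in thymus. Cxcl1 and Cxcl2, attractants of neutrophils, were at 274 and 290.1 and at 138 and 139 CPM in the 2 recovered bladder samples. In recovered thymus they were at 36.9 and 36.9 and at 22.2 and 22.2 CPM (-2.93 ± 0.14 for Cxcl1 and -2.64 ± 0.18 for Cxcl2). Between rounds Cxcl1 fell by 2.42 on the log2 scale in thymus, and its change in bladder was -0.19 (adjusted p = 0.194). Cxcl6, another neutrophil attractant, had stood at 3228 and 1851 CPM in bladder before transplantation and was at 139 and 146 CPM after, against 29.7 and 29.4 in recovered thymus (-2.27 ± 0.19, and -7.64 ± 0.22 before).

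Cxcl16, a transmembrane chemokine, was at 188 and 188 CPM against 88.8 and 89.6 (-1.08 ± 0.10). Il36rn, the receptor antagonist of the interleukin 36 cytokines of epidermis, turned from thymus to bladder. It was at 16.4 and 15.9 CPM in recovered bladder and 1.36 and 1.55 in recovered thymus (-3.45 ± 0.23, adjusted p = 4.89e-09), and at 0.112 and 0.0431 against 1.59 and 1.37 before (adjusted p = 1.58e-05). Recovered whisker cells had 87.2 and 97.5 CPM, above all 4 samples. Cx3cl1, the membrane-bound chemokine fractalkine, was one of the 2 higher in recovered thymus, at 3.19 and 3.33 against 1.76 and 1.08 CPM (1.24 ± 0.37, adjusted p = 0.0111, not called at 0.87 without bladder replicate 2). It had been 41.6 and 58.5 CPM in bladder and 0.675 and 0.414 in thymus before (-6.48 ± 0.43).

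Of 25 antigen presentation and interferon members 6 were higher in recovered bladder and 3 in recovered thymus, with 16 not called (median -0.20), after 11 and 5 before. Calls lay in both directions among all named genes as well, with 20% toward bladder and 12.9% toward thymus. Genes that answer to interferon are given next for each direction. Slfn5 was at 45.8 and 44 CPM in recovered bladder against 10.4 and 12.2 in recovered thymus (-1.98 ± 0.12), and Gbp5, a guanylate binding protein, at 8.1 and 6.67 against 1.23 and 0.925 (-2.78 ± 0.60, adjusted p = 0.00108). Dhx58, a helicase that regulates sensing of viral RNA, was at 16.1 and 17.7 CPM in thymus against 5.71 and 6.8 in bladder (1.43 ± 0.13, adjusted p = 1.75e-07). Ifit2 was at 11.2 and 11.1 against 5 and 5.21 (1.12 ± 0.18). All 4 had the same direction and a larger difference before transplantation, from -6.92 for Gbp5 to 3.11 for Ifit2.

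The genes with the largest differences toward thymus, at 10 CPM or more, included genes of mucosal defence and ion transport. Defb4, a beta-defensin, was at 56.4 and 47 CPM in recovered thymus and 0.524 and 0.387 in recovered bladder (6.77 ± 0.48, adjusted p = 9.16e-09). Thymus had 6.23 and 2.98 CPM before, and bladder had no count in either sample, which makes the earlier difference at least 38.2-fold. Duox1, an oxidase that makes hydrogen peroxide at epithelial surfaces, was at 161 and 173 CPM against 16 and 15.7. The difference of 3.40 ± 0.091 was smaller than the 6.37 ± 0.15 before (interaction adjusted p = 1.70e-09), where bladder had 2.39 and 3.23 CPM and thymus 218 and 240.0. Recovered whisker cells were at 184 and 185 CPM. Cftr, the chloride channel of secretory epithelia, was at 107 and 104 CPM against 2.95 and 3.01 (5.14 ± 0.33, and 3.23 ± 0.19 before). Recovered whisker cells had 0 and 0.368 CPM.

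Alox12, a lipoxygenase, was at 139.6 and 139 CPM against 3.38 and 4.13 (5.20 ± 0.21, after 2.13 ± 0.17). Bdnf, a neurotrophin, was at 12.8 and 14.3 CPM in recovered thymus and 0.381 and 0.129 in recovered bladder (5.81 ± 0.41, adjusted p = 1.02e-08). Before transplantation thymus had stood at 2.62 and 2.82 CPM and bladder at 1.12 and 0.819, so the gap widened (interaction 4.33 ± 0.51, adjusted p = 3.39e-06), with thymus rising and bladder falling. Il1rl1, the receptor of interleukin 33, was at 25.2 and 25.5 against 0.714 and 0.904 CPM (4.93 ± 0.63). Tspan33, a tetraspanin, at 35.6 and 32.4 against 3.38 and 2.76, and Ddo, an oxidase of D-aspartate, at 23 and 24.1 against 2.14 and 2.32, were both under 2 CPM in all 4 samples before transplantation. Their differences in recovered cells were 3.47 ± 0.21 and 3.38 ± 0.19, and neither had been called before.

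The largest differences toward bladder included transporters, a mechanically gated channel and cytoskeletal genes. Piezo2, that channel, was at 180.1 and 160.4 CPM in recovered bladder and 3.1 and 3.47 in recovered thymus (-5.68 ± 0.17, adjusted p = 4.45e-13). Before transplantation bladder had held 125 and 109.7 CPM and thymus 0.0794 and 0.0828 CPM, 2 counts in each sample. Heph, a copper-dependent iron oxidase, was at 273 and 280.0 CPM against 3.57 and 3.5 (-6.28 ± 0.15), after 40.3 and 34.4 against 0.119 and 0.29. Abcg2, an efflux transporter, was at 19.9 and 19.7 CPM against 0.764 and 0.826 (-4.60 ± 0.31), and its difference had been -2.17 ± 0.18 before (interaction adjusted p = 3.56e-05), where thymus had held 4.33 and 3.44 CPM.

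Dnah2, a dynein heavy chain of cilia, was at 43.2 and 36.2 CPM in recovered bladder, 3.85 and 3.36 in bladder before and 0.297 and 0.462 in recovered thymus (-6.64 ± 0.39, adjusted p = 1.19e-09). Cdc42ep2, an effector of Cdc42, was at 87.8 and 87.1 against 0.595 and 1.32 CPM (-6.54 ± 0.35). Mme, the membrane metalloendopeptidase neprilysin, was at 33.2 and 36.4 against 1.74 and 1.35 (-4.50 ± 0.32). Efemp1, a fibulin of the matrix, was at 15.3 and 16.6 against 0.807 and 0.726 (-4.36 ± 0.28). Sh3tc1 was at 21.3 and 21.9 against 0.849 and 0.693 (-4.80 ± 0.29). All of these were higher in bladder before transplantation as well, and the interaction was not called for Mme (adjusted p = 0.31) and Efemp1 (adjusted p = 0.208).

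Many collagens turned. Of 25 tested, 8 were higher in recovered thymus, 3 were higher in recovered bladder and 14 were not called (median 0.60), after 9 and 9 before. Of the 11 called in recovered cells, 6 had been called in the opposite direction before, 2 in the same and 3 not at all. The 6 include both members of the 2 neighbouring pairs below, and Col6a3, which lost its call under 2 of the alternatives. Over all genes, 248 of the 2186 called in recovered cells (11.3%) had turned. That share is over all genes, whereas the collagens come from the named genes, which were called more often (32.9% against 16.4%). Type IV collagens, the network of basement membranes, turned in pairs that lie head to head in the genome. Col4a1 was at 19.4 and 21.5 CPM in recovered thymus and 8.33 and 9.86 in recovered bladder (1.17 ± 0.19, adjusted p = 7.69e-05), and its partner Col4a2 at 12.1 and 15.2 and 5.57 and 4.74 (1.42 ± 0.21, adjusted p = 3.95e-05). Before transplantation both were higher in bladder, Col4a1 at 74.1 and 69.4 against 9.13 and 7.33 CPM and Col4a2 at 35.8 and 31.3 against 4.64 and 3.89.

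Col4a4 went the other way. It was at 19.8 and 20.5 CPM in recovered bladder and 0.382 and 0.462 in recovered thymus (-5.51 ± 0.36, adjusted p = 3.89e-09), and at 0.261 and 0.474 in bladder and 6.71 and 9.86 in thymus before (4.47 ± 0.40, adjusted p = 6.15e-08). The change of -9.98 ± 0.54 was the largest fall of the thymus to bladder difference among named genes with at least 10 CPM. Its partner Col4a3, added to the named genes after its values were seen, stood at 6.05 and 5.21 CPM in recovered bladder and 0.255 and 0.066 in recovered thymus (-5.28 ± 0.75, adjusted p = 2.37e-05), and at 0.261 and 0.0431 against 0.794 and 3.11 before (3.51 ± 0.83, adjusted p = 0.00149). The 2 thymus samples before transplantation differed from each other in Col4a3, and both were above both bladder samples.

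The stretches between the paired genes are shown because both genes of each pair turned in the same direction. They were chosen after the values were seen. The bases come from the RefSeq promoter table for the GRCr8 build, with genes matched by symbol, whereas the counts were made on Rnor_6.0. Annotated starts of Col4a3 and Col4a4 lie 413 bases apart on opposite strands of chromosome 9. The 250 bases before each start are printed 5′ to 3′ on the strand of the gene, Col4a3 at chr9:91323740-91323989 on the plus strand and Col4a4 at chr9:91323578-91323827 on the minus strand. Capitals mark the 88 bases that belong to both windows, read from opposite strands.
Col4a3: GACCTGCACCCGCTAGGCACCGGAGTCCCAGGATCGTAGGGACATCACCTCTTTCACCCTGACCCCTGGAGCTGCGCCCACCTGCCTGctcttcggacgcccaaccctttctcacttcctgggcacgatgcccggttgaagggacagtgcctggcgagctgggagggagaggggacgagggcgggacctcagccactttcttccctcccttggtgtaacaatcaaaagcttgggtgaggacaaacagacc
Col4a4: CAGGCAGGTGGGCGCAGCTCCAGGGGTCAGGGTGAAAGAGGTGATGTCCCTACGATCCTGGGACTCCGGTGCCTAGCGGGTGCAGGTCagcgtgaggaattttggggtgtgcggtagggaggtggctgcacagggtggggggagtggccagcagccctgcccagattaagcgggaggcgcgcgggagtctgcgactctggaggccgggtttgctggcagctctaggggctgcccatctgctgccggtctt
The starts of Col4a1 and Col4a2 lie 77 bases apart on chromosome 16, and the 76 bases between them, at chr16:84885521-84885596, are printed on the plus strand.
Col4a1 and Col4a2: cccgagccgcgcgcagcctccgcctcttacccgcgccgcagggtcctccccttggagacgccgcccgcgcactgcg
Letters were searched on both strands. A GC box (GGGCGG) occurred 1 time in the Col4a3 window, 0 times in that of Col4a4 and 1 time between Col4a1 and Col4a2, where 30.5% of 33469 promoter windows of 250 bases hold one. Neither a CCAAT box (CCAAT, in 34% of windows) nor a TATA box (TATAAA, in 12.9%) was found in any of the 3 stretches. The share of G and C was 62%, 66.4% and 78.9%, beside a median of 51.2% over all windows. Values from windows of 250 bases are not a like background for the 76 bases between Col4a1 and Col4a2. These matches describe the letters in these windows and were not tested against the expression values.

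Several fibrillar collagens were higher in recovered thymus. Col5a2 was at 476 and 495 CPM against 218 and 227 in recovered bladder (1.13 ± 0.088, and 1.95 ± 0.089 before), Col5a1 at 84.7 and 88.3 against 43.1 and 38.4 (1.09 ± 0.12, and -0.55 ± 0.12 before), and Col11a1 at 22.2 and 24 against 2.9 and 3.32 (2.88 ± 0.23, not called before). Col8a1, a network collagen, was at 144 and 163 against 70.3 and 70.5 (1.12 ± 0.19, and 3.73 ± 0.24 before). The list of fibroblast and stromal markers shares 7 of its 13 members with the collagen list. Of the 13, 4 were higher in recovered thymus (3 of them collagens) and none in recovered bladder (median 0.71), against 2 and 9 before (median -2.63). Without bladder replicate 2 the count toward thymus was 2, as Col5a1 (0.99) and Col6a3 (1.00) fell just under the fold threshold. The summed level of the 13 was 667 and 697 CPM in recovered thymus and 334 and 332 in recovered bladder, beside 496 and 582 in thymus and 603 and 507 in bladder before. Col5a2 alone, which was higher in thymus in both rounds, gave the 476 and 495 CPM in recovered thymus and 218 and 227 in recovered bladder given above, and no marker was at 0 counts in a recovered sample. The defining markers were Col1a1 at 19.1 and 21.3 against 17.8 and 15.5 CPM (0.29 ± 0.22, adjusted p = 0.291), Col3a1 at 13 and 13.3 against 8.14 and 7.92, Dcn at 2.38 and 3.27 against 1.62 and 1.59 and Aspn at 0.467 and 0.363 against 0.381 and 0.387, none of them called, and Col6a3 at 7.35 and 7.66 against 3.71 and 3.06 (1.16 ± 0.36, adjusted p = 0.0132). In bladder before transplantation Col1a1 had been at 176 and 127 CPM and Col3a1 at 65.1 and 56.9. Fstl1, a secreted glycoprotein on the same list, was at 26.9 and 27.9 CPM against 5.52 and 3.96 (2.56 ± 0.22), after 4.68 and 4.27 against 22.1 and 17.5. The part of stromal RNA in the collagen values was not tested.

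Of the named members of the Wnt, Notch, BMP, FGF and Hedgehog pathways, 13 of 50 were called, beside 32.9% of all named genes. No Notch receptor, Frizzled gene, FGF ligand or FGF receptor was among the 50. Of the 13 called, 5 were higher in recovered thymus, and 8 were higher in recovered bladder (median 0.0055 over the 50), after 8 and 19 before. Ligands of the same BMP branch were higher in opposite tissues. Bmp4 was higher in thymus, as given above, and Bmp2 was at 18.8 and 20.6 CPM in recovered bladder against 1.27 and 1.62 CPM in recovered thymus (-3.74 ± 0.23, adjusted p = 2.12e-09), after -3.38 ± 0.25 before. Bmp8b was at 31.3 and 31.6 against 9.81 and 10.9 (-1.59 ± 0.12) and had not been called before. Dll1, a Notch ligand, was at 92 and 95.6 CPM in recovered thymus and 36.9 and 36 in recovered bladder (1.36 ± 0.11), where bladder had risen from 3.14 and 6.38 CPM. Dusp6, a phosphatase induced by ERK signalling, was at 172 and 183 against 65.8 and 72.2 (1.36 ± 0.26, and 1.08 ± 0.25 before). Wnt3 was at 0.212 and 0.132 CPM in thymus and 0.238 and 0.258 in bladder, and the Wnt antagonist Dkk3 at 0.977 and 0.925 in thymus and 1.62 and 2.11 in bladder, neither of them called.

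Enzymes of retinoid and xenobiotic metabolism were called in 20 of 48 cases, beside 32.9% of all named genes. Of the 20, 14 were higher in recovered bladder and 6 in recovered thymus (median -0.38 over the 48), after 15 and 11 before. Aldh1a3, which makes retinoic acid, was at 495 and 462 CPM in recovered bladder and 105 and 100 in recovered thymus (-2.22 ± 0.11, adjusted p = 2.13e-10). Before transplantation it had been at 5530.0 and 4074 CPM in bladder and 29.8 and 26 in thymus (-7.41 ± 0.13), so each tissue had moved toward the other (bladder -3.31, thymus 1.88). Dhrs3, which reduces retinal to retinol, was higher in thymus, at 514 and 506 against 193 and 189.7 CPM (1.42 ± 0.12, and 2.62 ± 0.13 before). Cyp26b1, which degrades retinoic acid, was at 105 and 98.4 against 37.7 and 38.7 (-1.41 ± 0.10), and Crabp2, a retinoic acid binding protein, at 334 and 318 against 121 and 109 (-1.50 ± 0.12). Before transplantation Crabp2 had not been called, at 458 and 334 CPM in thymus and 263 and 269 in bladder. Gstt3, a glutathione transferase, was at 190.2 and 173 against 31 and 28.8 (-2.60 ± 0.13), and Cyp2t1, a cytochrome P450, at 59.8 and 60.2 against 3.65 and 3.07 (-4.17 ± 0.14, and -4.24 ± 0.18 before). In prostaglandin synthesis, Ptgs1 was at 355 and 370.0 CPM in recovered bladder and 138 and 141 in recovered thymus (-1.38 ± 0.083, and -1.13 ± 0.083 before), while Ptges turned from thymus to bladder (-1.14 ± 0.10, after 2.04 ± 0.11), at 78.4 and 80.9 against 37 and 35.4 CPM.

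Among genes with at least 10 CPM in some group, the largest gains of thymus over bladder between rounds included genes that fell in bladder, and some of these also rose in thymus. Cdh6, a cadherin, was at 49.3 and 38.9 CPM in bladder before and at 0 counts in both recovered bladder samples, and recovered thymus, at 0 and 0.066 CPM, was under the floor too. Clca4l, a chloride channel accessory gene, was at 1415 and 441 CPM in bladder before, where the 2 samples differed, and at 15 and 14 after, against 63.2 and 61.7 in recovered thymus (2.11 ± 0.42, adjusted p = 5.85e-04). Camk2n1, an inhibitor of the kinase CaMKII, was at 13.5 and 12.2 CPM in recovered thymus against 2.67 and 2.88 in recovered bladder, after 1.07 and 1.08 against 26.9 and 20.8. Cx3cl1 and Padi1, given above, also fell in bladder and rose in thymus. The largest moves toward bladder included those of Col4a4, Il36rn and Dmkn, given above, and of Clip4 and Adcy5. Clip4, a cytoplasmic linker protein, rose in bladder from 0.0747 and 0.129 to 27 and 26.3 CPM and in thymus from 3.57 and 5.34 to 13.7 and 13.1. Adcy5, an adenylate cyclase, fell in thymus from 14.1 and 13.6 CPM to 0 and 0.132.

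By the sum of both absolute differences the 4 named genes that turned furthest were Aqp5, Col4a4, Cxcr4 and Adcy5. All but Col4a4 rest on low counts in recovered cells, and they lost the call under 2 (Aqp5, Cxcr4) or 4 (Adcy5) of the alternatives at the same fold threshold. Aqp5, a water channel of glands, was at 7.03 and 5.67 CPM in thymus before and at 0.905 and 0.387 in recovered bladder against 0.0849 and 0.066 in recovered thymus. Cxcr4, a chemokine receptor, was at 8.81 and 4.22 CPM in bladder before. It was at 0.255 and 0.396 in recovered thymus and at 0 counts in recovered bladder, which makes it at least 2.39-fold higher in thymus. Adcy5 was at 0.333 and 0.172 CPM in recovered bladder.

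Members of the hair follicle list are read beside the 32.9% of all named genes called in recovered cells. Of 36 regulators of follicle and whisker fixed, 15 had a name. Of these 2 were higher in recovered thymus, none was higher in recovered bladder and 13 were not called (median 0.35), after 3 and 4 before. Lhx2, Foxn1, Gata3, Hr and Lef1, follicle factors measured in the study, are not among the 15 and are not analysed here. Cd200, a surface protein of follicle bulge cells, was at 54.1 and 51.6 CPM in recovered thymus against 13.3 and 13 in recovered bladder (2.00 ± 0.16, adjusted p = 3.94e-08), and Bcl11a, a zinc finger factor, at 3.74 and 3.47 against 1 and 0.818 (1.96 ± 0.38). Itgb8, an integrin chain, was at 11.6 and 13.5 CPM in recovered thymus and 13.9 and 13.5 in recovered bladder (-0.12 ± 0.18, adjusted p = 0.595), and rose between rounds in both (thymus 3.29, bladder 2.31). Chst11, a chondroitin sulfotransferase, was at 23.6 and 24.2 CPM in thymus and 19.1 and 18.4 in bladder (0.35 ± 0.13, not called). Of 12 Eph receptors and ephrins 1 was higher in each tissue, beside 12.9% of all named genes higher in thymus and 20% in bladder. Ephb1 was at 2.29 and 1.72 CPM in recovered thymus and at 0 counts in recovered bladder, at least 14.7-fold, and Efna1 was at 123 and 122 CPM in bladder against 49.2 and 50.6 in thymus (-1.30 ± 0.15).

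Cell cycle genes leaned to thymus in both rounds. Of 36 tested 9 were higher in recovered thymus, 1 was higher in recovered bladder and 26 were not called (median 0.76), after 18 and 0 before (median 1.02). Aurkb, a mitotic kinase, was at 158 and 157 CPM in recovered thymus against 71.7 and 69.7 in recovered bladder (1.16 ± 0.14, and 3.31 ± 0.14 before), where thymus had fallen from 533 and 539.6. Cdt1, a licensing factor of replication, was at 20 and 19.4 against 4.24 and 5.3 (2.04 ± 0.27), E2f8 at 14.9 and 15 against 5.14 and 5.25 (1.52 ± 0.27), Brca1 at 19.9 and 21.4 against 9.76 and 10.5 (1.03 ± 0.19) and Asf1b at 13.5 and 14 against 7.24 and 6.37 (1.02 ± 0.21). Brca1 and Asf1b, close to the fold threshold, each lost the call without 2 of the libraries. Ccne1, cyclin E1, was the exception, at 35.1 and 36 CPM in recovered bladder against 9.22 and 8.82 in recovered thymus (-1.98 ± 0.14, adjusted p = 1.04e-08), and it had not been called before. The summed level of the list was 837 and 842 CPM in recovered thymus and 546 and 541 in recovered bladder. How far growth rate bears on the other differences was not tested.

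Of 12 markers of blood cells 3 were higher in recovered thymus and 1 in recovered bladder (median -0.51), after 3 and 8 before (median -3.89). Among all named genes 12.9% and 20% were called in these directions in recovered cells. Of the 12, 2 and 3 were at 0 counts in the recovered thymus samples and 4 and 1 in the recovered bladder samples. The summed level was 65.0 and 63.3 CPM in recovered thymus and 347 and 348 in recovered bladder, of which Arhgdib alone, an inhibitor of small GTPases, gave 287 and 290.3 CPM in bladder and 28.7 and 26.5 in thymus (-3.39 ± 0.10). Defining markers were Cd53 at 2.59 and 2.64 against 0.524 and 0.818 CPM (1.95 ± 0.43), Coro1a at 0.34 and 0.231 against 0.381 and 0.474, Lcp1 at 2.04 and 2.44 against 1.29 and 1.29 and Cd68, a lysosomal protein, at 28.2 and 27.8 against 55.1 and 52.9. Cd38, an enzyme of NAD metabolism, was at 1.57 and 2.05 CPM in recovered thymus and 0 and 0.0431, 1 count in all, in recovered bladder, a ratio of 81.3 with a 95% interval of 14.3 to 3245. Cytip, a lymphocyte protein, was at 0.212 and 0.363 CPM in thymus against 2 counts in all in bladder, a ratio of 6.57 with a 95% interval of 1.54 to 58.9, and lost its call under 4 of the alternatives at the same fold threshold. Of the melanocyte markers Gpnmb alone could be tested and was not called. It was at 117 and 115 CPM in recovered thymus and 74.7 and 71.8 in recovered bladder. The part of such cells in the values above was not tested.

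**Figure D5:**
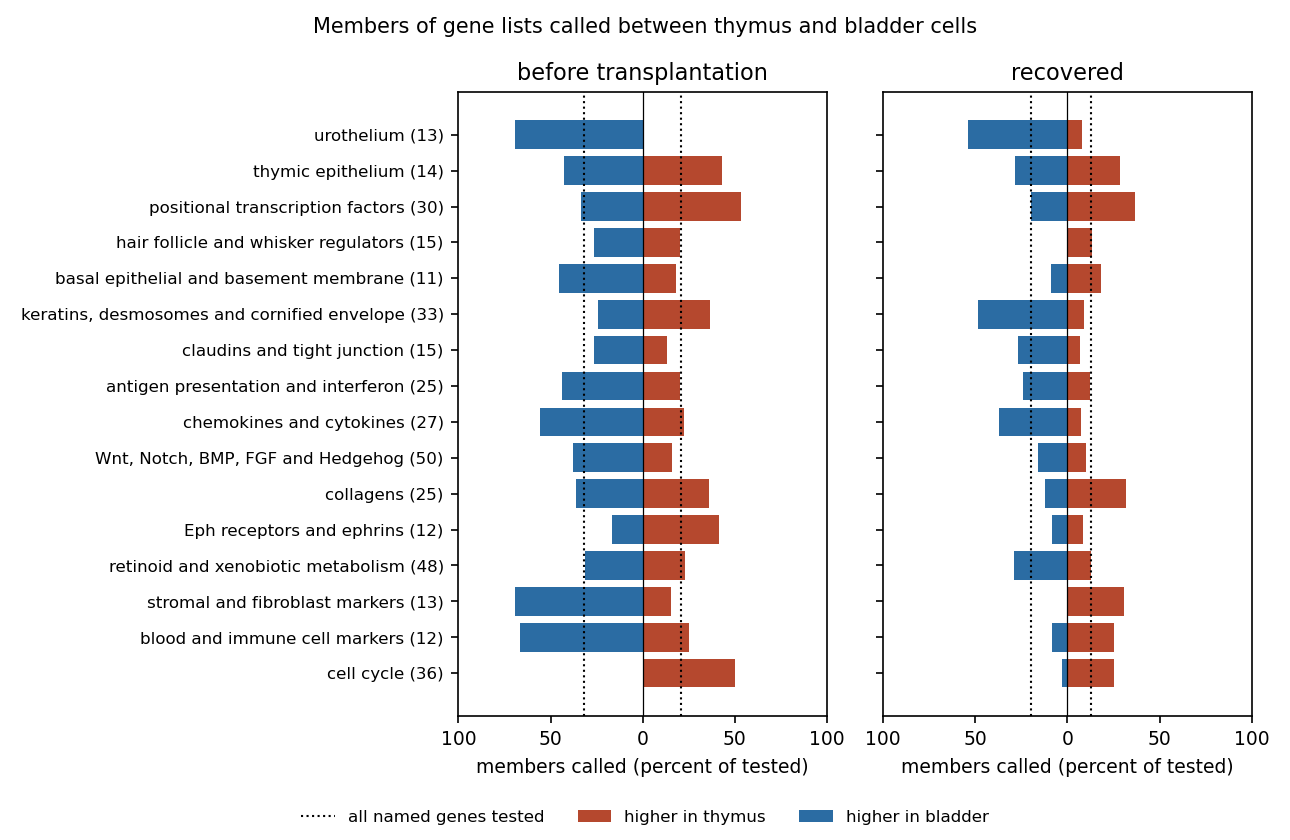
Members of 16 gene lists called between thymus and bladder, as a percent of members tested (number in brackets), before transplantation (left) and in recovered cells (right), with red bars for higher in thymus, blue for higher in bladder and dotted lines for all named genes. Of 33 keratin and cornified envelope members 12 lie toward thymus before and 3 in recovered cells, and the stromal markers lose all 9 calls toward bladder.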

How the data were processed

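RNA from EGFP-sorted cells of 10 groups of 2 samples was sequenced from stranded poly(A) libraries. The authors trimmed reads with cutadapt 1.8, aligned them to Rnor_6.0 with STAR 2.5.2b and counted them per gene with HTSeq 0.6.1, and the deposited values are raw counts per Ensembl gene (32494 rows). Rows that summarise unassigned reads stayed out of library sizes and tests. They held 8.51% to 13.4% of reads without a feature and 28.8% to 35.8% not unique. The 2 Y-linked genes with a paired name were left out. Any Y-linked rows without a paired name could not be recognised and stayed in. Symbols came from 2 supplementary tables of the study, of which only the names were used.

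The 13300 genes that reached 1 CPM in any sample were fitted with limma voom 3.58.1 on TMM-scaled counts (edgeR 4.0.16, R 4.3.3) over all 20 samples, with 10 group means and 10 residual degrees of freedom. A call needed a p value adjusted by Benjamini-Hochberg over all genes of less than 0.05 and a log2 fold change of 1 or more. CPM are TMM-scaled without a prior count, and log2 CPM for distances had a prior count of 2 added. Counts were simulated with the same dispersion for every gene and sample, and changes were placed only in genes averaging 1 CPM or more. For the recovered comparison limma voom found 100 of 100 genes changed by a log2 fold change of 1.5, with 1 false call in 12440 genes. For the interaction it found 91 of 100, with 14 false calls in 12435 genes. The simulation therefore does not show how the test behaves with unequal duplicates or for genes near the floor. Depth was 20723083 to 29824855 counts on genes.

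Named genes were the 12 highest and 12 lowest called log2 fold changes where both samples of the higher group reached 10 CPM, the 6 largest interactions in each direction with at least 10 CPM in some group, the 4 genes that turned furthest, genes the study names (11 of 34 could be paired), up to 6 called members of each list with the highest CPM, and defining markers. Some genes that this rule takes are not reported here. The members and lists were chosen with earlier results of these data known. Alternatives were edgeR's quasi-likelihood test, DESeq2 1.42.0, its size factors, other count filters and fold thresholds, a fit of only the samples compared, a replicate block and leaving out each library.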

Additional observations from a re-analysis of the deposited data

Results flagged for a closer look

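The test of the difference between rounds, an interaction fitted over all 20 samples, called 3096 of 13300 genes. Among the 111 named genes 79 were called. The values that follow are the change in the log2 difference of thymus minus bladder, recovered minus before, and a positive value is a move toward thymus. Comparisons within each tissue share samples with this test and are no independent support for it.

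Among transcription factors the change was 5.68 for Tbx3, 1.53 for Foxa1, -3.61 for Dmrt2, -2.03 for Eya1 and 2.41 for Bcl11a. Among urothelial and keratin genes it was 5.04 for Krt18, 2.05 for Krt19, 1.34 for Krt4, 3.42 for Upk3bl, 1.57 for Prom1, 1.503 for Psca, 3.20 for Fabp4 and -1.30 for Cldn4. Genes of epidermal differentiation moved by -3.82 (Krt10), -6.77 (Dmkn), -1.37 (Ecm1) and -1.80 (Cst6) toward bladder and by 6.19 (Padi1) toward thymus.

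Among defence and immune genes the change was -3.72 for Cxcl10, -2.23 for Cxcl1, 5.37 for Cxcl6, 7.72 for Cx3cl1, 2.94 for Slfn5, 4.14 for Gbp5, -1.29 for Dhx58 and -1.99 for Ifit2. It was 1.58 for Cd74, -2.49 for Cd80 and 2.59 for Il1rl1. Blood cell markers moved by 5.07 (Cd53), 4.95 (Lcp1), 1.85 (Arhgdib) and -1.92 (Cd68).

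Collagens moved by 4.30 (Col4a1), 4.39 (Col4a2), -9.98 (Col4a4), 3.71 (Col1a1), 4.44 (Col3a1), 1.64 (Col5a1), 3.79 (Col6a3), -2.61 (Col8a1) and 2.57 (Col11a1). Other matrix and stromal genes moved by 4.70 (Fstl1), 3.17 (Dcn) and 1.74 (Chst11), and adhesion and junction genes by 1.56 (Cgnl1), 1.83 (Clmp) and 2.67 (Cd200).

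Signalling genes moved by 4.33 (Bdnf), -3.21 (Dll1), -1.90 (Bmp8b) and 6.63 (Camk2n1), and cell cycle genes by -2.16 (Aurkb) and -2.001 (Ccne1). Channels and transporters moved by 1.90 (Cftr), 6.13 (Clca4l), -2.43 (Abcg2) and 1.21 (Heph, an oxidase). Enzymes moved by 5.19 (Aldh1a3), -1.21 (Dhrs3), -2.06 (Crabp2, a binding protein), -2.04 (Gstt3), -3.18 (Ptges), 3.07 (Alox12), -2.97 (Duox1) and 2.42 (Ddo). The remaining genes were Tspan33 (3.90), Dnah2 (-2.41), Cdc42ep2 (-2.36) and Sh3tc1 (-1.55).

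For 9 genes at least 1 of the 4 groups was at or under the floor of 3 counts per library. Their fitted changes depend on the small count added before the logarithm, so they give a direction and are neither sizes nor bounds. These values were 11.23 for Cdh6, 9.81 for Cxcr4, 9.27 for Cd38, 4.50 for Piezo2, -10.20 for Aqp5, -9.60 for Adcy5, -7.45 for Il36rn, -6.21 for Clip4 and -3.21 for Aspn. Cxcr4 was at 0 counts in recovered bladder, at least 2.39-fold lower there than in recovered thymus, and Cd38 had 1 count in all there, with the ratio and interval given above. Adcy5 had 3 counts in all in bladder before, a ratio of thymus to bladder of 231 with a 95% interval of 78.7 to 1123 for counting error. Cdh6 was under the floor in both recovered groups and in thymus before.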

How the results depend on the processing

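The counts of called genes (2186 recovered, 3620 before, 3096 for the interaction) depended most on the fold threshold, at 884, 1713 and 1473 with a log2 fold change of 2 and at 6610, 8707 and 6556 without one. They stayed within 1.5 times with edgeR (2178, 3582, 2945), DESeq2 (2079, 3483, 2858), its size factors (2184, 3614, 3090), no filter on low counts (2791, 4843, 3760), a filter of 10 counts in 2 samples (2107, 3464, 2996) and a fit of only the samples compared (1955, 3269, 2799). Leaving out 1 library at a time gave 1975 to 2036, 3356 to 3757 and 2857 to 3300, with the lone sample of a group assumed to vary like the others. Recovered distance was 69.0% of the distance before, and 67.9 to 70.0% over the alternatives run. The replicate numbers did not pair the samples, as correlations of deviations between groups ran from -0.112 to 0.146. With the replicate number as a replicate block the counts were 2193, 3618 and 3098, and no named gene changed its call. At the same fold threshold, under the other tests, scalings and filters, the block and each recovered library left out, 100 of 111 named genes kept their call wherever they could be tested and 11 did not (Clip4, Adcy5, Cldn6, Cytip, Aqp5, Asf1b, Brca1, Col6a3, Cxcr4, Col5a1 and Cx3cl1), while none changed direction. Only 101 could be tested in the fit of the samples compared and 110 with the filter of 10 counts. Depth limits the values near the floor of 3 counts, and a fitted change that involves such a group depends on the small count added before the logarithm.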

Other observations

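Some further genes were chosen after their values were seen. Cyp1b1, a cytochrome P450 that acts on retinol and on polycyclic hydrocarbons, was the only member of the retinoid and xenobiotic list that turned. It stood at 7.09 and 6.14 CPM in recovered thymus against 2.14 and 1.81 in recovered bladder, and at 0.318 and 0.166 against 8.96 and 6.25 before (1.73 after -4.91). Cxcl14, a chemokine of epithelia, turned toward bladder, at 1.62 and 1.29 against 0.0849 and 0.165 CPM in recovered cells (-3.37 ± 0.50) and 0.373 and 0.215 against 1.31 and 0.704 before. Ccl20, which attracts cells that carry Ccr6, was called toward bladder in both rounds, at 7.43 and 9.64 against 0.382 and 0.231 CPM in recovered cells (-4.78 ± 0.67, and -2.83 ± 0.26 before). En1, a homeobox factor of ventral ectoderm, was the 1 positional factor that turned, at 1.91 and 1.29 against 0.143 and 0.431 CPM in recovered cells and 0.238 and 0.124 against 0.821 and 0.56 before. Bnc2, a basonuclin, was at 5.82 and 6.24 against 0.476 and 0.215 CPM (4.16 ± 0.54, and 1.71 ± 0.56 before).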
